A study of Mus musculus with 30 samples.

Results

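The comparison set whole mouse lung after 4 d and 6 d in low oxygen (late) against lung after 10 h and 2 d (early). The arrays were chosen by their titles, Hyp4d and Hyp6d against Hyp10h and Hyp2d, and make 24 of the 30 arrays of the series. Each of the 4 groups held 2 samples, lettered 1a and 1b, and each sample was run on 1 Affymetrix MG-U74 version 2 array of each of 3 types (A, B and C), which carry different probe sets. Per the labels, all groups were mice kept in a chamber at 10% oxygen so that they developed pulmonary hypertension, and total RNA was taken from the lung. The sources used here give no strain, age or sex. The B and C arrays of 4 d and 10 h stand in one run of accessions, the A arrays of these samples in a later one, and all arrays of 6 d and 2 d in another. The text therefore gives 4 d over 10 h and 6 d over 2 d separately, calls each pair a run, and looks for genes that moved the same way in both. The series title names vascular remodelling after pulmonary hypertension. The question addressed here is which lung transcripts differ between the first 2 days and the later days of hypoxia.

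As background, chronic hypoxia narrows and then thickens the small pulmonary arteries. Endothelial cells, smooth muscle cells and fibroblasts of the vessel wall divide and lay down matrix, and the right heart comes to pump against a higher pressure. Hypoxia-inducible factors switch on glycolytic and angiogenic genes, while acute stress and the handling of tissue switch on immediate early genes, which encode short-lived transcription factors such as Fos and Junb. Alveolar type 2 cells make surfactant and act as progenitors of the gas-exchange epithelium.

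Values are deposited probe set intensities, and a change is a log2 difference of the group means with the SE of a limma fit, late minus early unless another pair is named. A floor was set at the 40th percentile of each array type, 238 for A, 297 for B and 199 for C, and lower values were raised to it. A probe set was tested where at least 2 of the 8 arrays of its type lay above it, and a gene rose or fell only where its adjusted p (Benjamini-Hochberg over 25279 probe sets) was under 0.05. Nothing in the labels ties 1a and 1b to different animals, so p-values rest on a spread between samples that may be technical only, and precision is limited by the number of arrays. In whole lung, fewer cells of a type and less RNA per cell cannot be told apart.

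The arrays were alike in overall scale, with Spearman correlations of 0.872 to 0.971 between the samples of a group. Lung markers were near the top of every A array, with Sftpc (surfactant protein C), Scgb1a1 (the club cell secretoglobin) and Ager (an alveolar type 1 receptor) at percentile 93.3 or above. RNA controls differed between groups. The 3' to 5' signal ratio of Gapdh was 1.40 to 1.68 at 6 d against 3.64 to 4.60 at 2 d, and 0.859 to 1.49 at 4 d against 0.786 to 1.11 at 10 h. Its part in the 6 d over 2 d changes was not tested. The A array labelled 4 d 1a stood apart from its label. Over 1303 genes carried by both A and B, its gene-centred profile correlated at -0.00937 with the 4 d arrays of type B, while that of its partner 4 d 1b correlated at 0.118. Over 1324 genes shared with C the values were -0.00404 and 0.0686. For the genes of the A type that passed for late over early, values without this array are therefore given too. Such fits leave 1 A array at 4 d, so that group then shows no spread of its own. The A array labelled Norm 1b, from lungs outside this comparison, correlated with the 4 d arrays at 0.146 (B) and 0.140 (C), and with the Norm arrays at 0.0245 and 0.0448. Whether labels were exchanged was not tested.

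Few probe sets changed between early and late low oxygen, and the changes of the separate runs did not correlate across probe sets. Of 25279 probe sets 25 passed the threshold (0.0989%), 14 higher (0.0554%) and 11 lower (0.0435%) in late lungs, and 3131 (12.4%) had an unadjusted p under 0.05. The count rests on single samples: it was 2 to 6 with any sample but 4 d 1a left out, and 31 without 4 d 1a. Of the 25 that passed, 23 had the same sign in both runs, and for 17 the 4 late arrays did not overlap the 4 early ones. The 25 were chosen by the mean of the 2 within-run changes on these same arrays, which favours both counts. Over all probe sets tested, 1.95% had every late array above every early one and 1.61% every late array below. The same sign in both runs was found for 23.3% (higher) and 23.9% (lower) of all probe sets and opposite signs for 47.4%, and the changes of the 2 runs correlated across probe sets at a Pearson's r of 0.00161 (probe sets are not independent replicates). Of the 2329 probe sets with an unadjusted p under 0.05 for 4 d over 10 h (9.21% of all), 45.9% had the same sign for 6 d over 2 d. Both pairs passed this level with the same sign in 243 probe sets and with opposite signs in 237. Counted by gene, with 1 representative probe set for each of 12890 genes, 16 changed (0.124%): 9 rose and 7 fell.

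**Figure D1:**
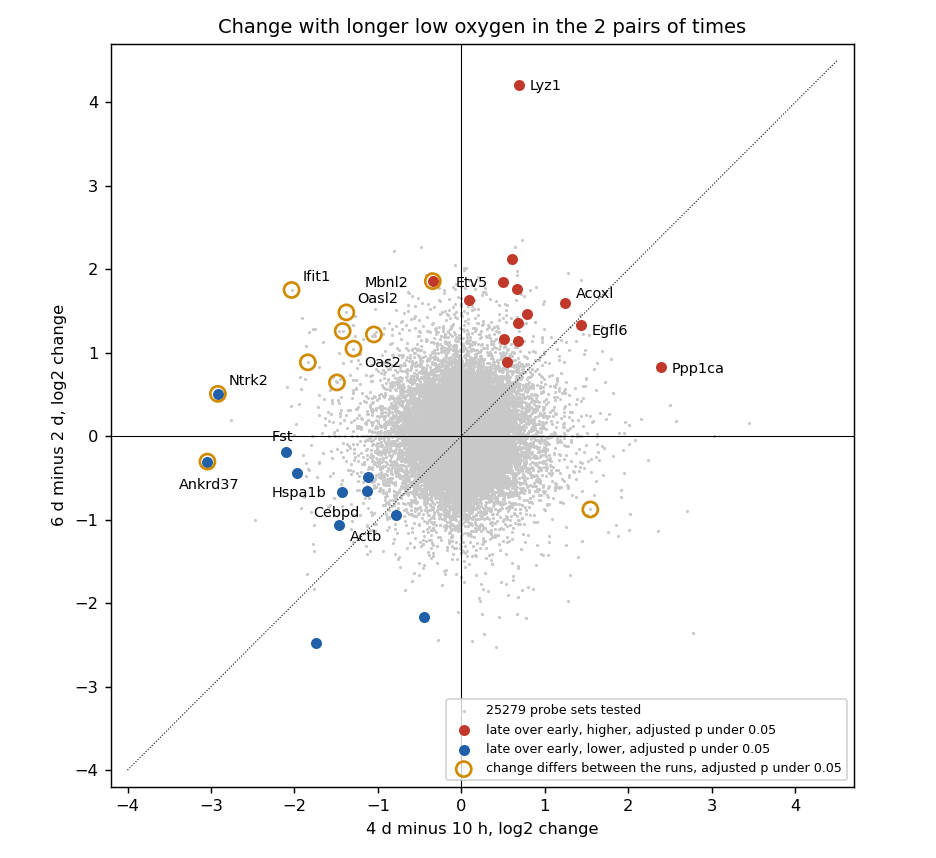
Each point is 1 of 25279 probe sets, with the log2 change of 4 d minus 10 h on the x axis and of 6 d minus 2 d on the y axis. Red and blue points passed the test of late over early (14 higher, 11 lower), orange rings mark the 11 whose change differed between the runs, and the cloud shows no slope along the dotted line of equal change.

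Genes of alveolar type 2 cells stood higher in late lungs in both runs. This list, like all gene lists below, was chosen with earlier results of these data known, so its counts are not independent evidence. Of 27 such genes tested 24 were higher, 19 of them in both runs (24.5% of all genes), with a median change of 0.31 (0.34 for 4 d over 10 h and 0.37 for 6 d over 2 d) against 0.00057 over all genes. Of the 27, 3 passed (0.0698% of all genes rose), 11 had an unadjusted p under 0.05 (6.8% of all genes on that side), and for 9 the late arrays all lay above the early ones (2.23% of all genes). The 3 that rose were Lyz1, Egfl6 and Etv5. The mean centred level of the list was 0.051 and 0.096 at 4 d, against -0.424 and -0.171 at 10 h, and 0.411 and 0.286 at 6 d, against -0.142 and -0.107 at 2 d (log2), so that no late sample overlapped an early one. On the B and C arrays alone 11 of 11 were higher with a median of 0.54, and without the A array labelled 4 d 1a the count was 25 of 27 with a median of 0.34.

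Etv5, an ETS transcription factor that maintains the type 2 cell state in mice, read 4976 and 4309 at 4 d, against 3429 and 3133 at 10 h, and 4821 and 5794 at 6 d, against 1442 and 1495 at 2 d. Every late array was above every early one, and the change was 1.17 ± 0.10 (SE, 2 arrays per group, limma adjusted p = 0.0220). Most of it came from the low 2 d arrays: 6 d over 2 d was 1.85 (adjusted p = 0.0122) and 4 d over 10 h was 0.50 (adjusted p = 0.328). Egfl6, a secreted protein with EGF repeats, rose, with like changes in both runs. It read 38141 and 27877 at 4 d, against 12602 and 11570 at 10 h, and 44039 and 38984 at 6 d, against 14502 and 18501 at 2 d. Its change was 1.39 ± 0.16 (adjusted p = 0.0420), or 1.43 for 4 d over 10 h and 1.34 for 6 d over 2 d. This probe set carries the suffix i and is thus not a plain one.

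Lyz1, a lysozyme, had the largest change of the 16 genes at 2.45 ± 0.23 (adjusted p = 0.0272). It read 12860 and 10212 at 4 d, against 7950 and 6315 at 10 h, and 33033 and 29448 at 6 d, against 2489 and 1140 at 2 d. The change was 0.69 in the first pair and 4.21 in the second (adjusted p = 0.0122 for 6 d over 2 d). Its probe set carries the suffix f, which marks probes shared within a gene family, and Lyz2, the near-identical neighbour of Lyz1, read 17478 and 16544 at 4 d, against 11478 and 15915 at 10 h, and 19879 and 16816 at 6 d, against 17434 and 18003 at 2 d, on its own probe set. The Lyz2 change was 0.19 (adjusted p = 0.709). Which lysozyme the Lyz1 probe set reads is therefore uncertain.

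Surfactant genes did not move as 1 group. Abca3, the transporter that loads lipid into lamellar bodies, read 11674 and 11536 at 4 d, against 7157 and 8819 at 10 h, and 12305 and 13555 at 6 d, against 8290 and 7795 at 2 d. Every late array was above every early one (change 0.62 ± 0.13, adjusted p = 0.179). Sftpb was 0.45 (adjusted p = 0.281) and Cxcl15, a chemokine of lung epithelium also called lungkine, was 0.54 (adjusted p = 0.258). Hc, complement component C5, was 0.85 ± 0.14 (adjusted p = 0.0963). It was 0.99 without the A array labelled 4 d 1a, which leaves 1 at 4 d. Sftpc read 13211 and 10121 at 4 d, against 3316 and 10409 at 10 h, and 21894 and 10008 at 6 d, against 36691 and 42808 at 2 d. Its runs had opposite signs (0.98 and -1.42) and its change was -0.22 (adjusted p = 0.850). The representative probe set of Sftpa1 changed by 0.18, whereas another, with suffix i, passed at 1.12 ± 0.11 (adjusted p = 0.0272). That probe set read 5877 and 6116 at 4 d, against 3341 and 3633 at 10 h, and 7447 and 6179 at 6 d, against 2255 and 2700 at 2 d.

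Immediate early genes stood lower in late lungs in both runs. Of 31 tested 28 were lower, 24 of them in both runs (23.6% of all genes), with a median of -0.35 (-0.49 for 4 d over 10 h and -0.21 for 6 d over 2 d). Of the 31, 1 passed (Maff; 0.0543% of all genes fell), 16 had an unadjusted p under 0.05 on the lower side (6.17% of all genes), and for 5 every late array lay below every early one (1.82% of all genes). The mean centred level was -0.179 and -0.232 at 4 d, against 0.337 and 0.326 at 10 h, and -0.205 and -0.171 at 6 d, against 0.073 and 0.050 at 2 d (log2). The late samples lay close together, and the 10 h samples were above the 2 d ones. On B and C alone 5 of 7 were lower (median -0.36), and without the A array labelled 4 d 1a 28 of 31 (median -0.34).

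Promoters of Maff, Junb and Atf3 are shown because these are the list's genes of smallest p that were found in the promoter table. They are the 250 bases before the RefSeq start (GRCm38.p6, 5′ to 3′ on the gene's strand), with TGACG, the core of the site bound by CREB and ATF factors, or its reverse complement in capitals. In the Maff promoter (chr15:79347270-79347519, plus strand) the capitals mark the whole palindrome TGACGTCA. Maff has 3 listed starts, and this one is printed because it holds that site. At the other starts the palindrome was absent, with 0 and 1 copies of TGACG on either strand. Junb is at chr8:84978749-84978998 and Atf3 at chr1:191183334-191183583, both on the minus strand.
Maff: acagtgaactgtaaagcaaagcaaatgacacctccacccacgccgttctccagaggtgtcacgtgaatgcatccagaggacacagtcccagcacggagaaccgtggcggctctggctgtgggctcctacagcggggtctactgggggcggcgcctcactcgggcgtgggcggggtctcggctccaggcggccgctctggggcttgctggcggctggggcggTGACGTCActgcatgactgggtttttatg
Junb: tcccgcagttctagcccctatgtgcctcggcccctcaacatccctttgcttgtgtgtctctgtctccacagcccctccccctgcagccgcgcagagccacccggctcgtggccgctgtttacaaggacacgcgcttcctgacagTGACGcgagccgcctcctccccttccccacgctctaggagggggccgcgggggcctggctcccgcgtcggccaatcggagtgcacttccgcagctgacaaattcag
Atf3: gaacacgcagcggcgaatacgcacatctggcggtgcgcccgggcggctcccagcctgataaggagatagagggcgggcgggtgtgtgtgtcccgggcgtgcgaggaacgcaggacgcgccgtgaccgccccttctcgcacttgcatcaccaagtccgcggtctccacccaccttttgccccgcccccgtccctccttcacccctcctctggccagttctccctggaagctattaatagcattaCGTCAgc
Of the 31 genes 27 were found in the promoter table. On either strand TGACG was present for 16 of 27 (59.3%), against 17.8% of all 32851 promoters, and TGACGTCA, which contains it, for 3 of 27 (11.1%) against 1.55%. The CArG box, the site of serum response factor, was present for 3 of 27 (11.1%) against 1.47%, and TGANTCA, the AP-1 site, for 1 of 27 (3.7%) against 6.75%. A gene with several starts was counted if any held the motif, while the share of all promoters is per start. A match describes the letters of this window and not binding.

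Maff, a small Maf transcription factor that lacks a transactivation domain, fell by 0.89 ± 0.11 (adjusted p = 0.0473). It read 1376 and 1205 at 4 d, against 2792 and 2847 at 10 h, and 1789 and 1694 at 6 d, against 3113 and 2401 at 2 d, with no overlap. Junb, an AP-1 subunit, read 751 and 718 at 4 d, against 1536 and 1332 at 10 h, and 1017 and 1057 at 6 d, against 1461 and 1462 at 2 d. Its groups did not overlap either, and its change was -0.73 ± 0.12 (adjusted p = 0.102). Ier2, a nuclear immediate early protein, was also below in every late array at -0.60 (adjusted p = 0.132). Atf3 read 679 and 594 at 4 d, against 1583 and 1662 at 10 h, and 720 and 837 at 6 d, against 834 and 843 at 2 d, so its difference lay in the first pair (-0.73 over both, adjusted p = 0.138). Fos was -0.95 (adjusted p = 0.259) and Egr1 -0.55 (adjusted p = 0.266), while Jun was 0.01, with opposite signs in the 2 runs. Ccn2, the matricellular growth factor CTGF, was -0.92 (adjusted p = 0.188). It was -1.19 without the A array labelled 4 d 1a, which leaves 1 at 4 d.

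Cebpd, Hspa1b and Tnfrsf12a also fell. Cebpd, a C/EBP transcription factor of the acute phase and glucocorticoid response, read 4510 and 3705 at 4 d, against 10477 and 11603 at 10 h, and 4903 and 5312 at 6 d, against 8193 and 7982 at 2 d. Late and early arrays were clearly apart, and it fell by 1.05 ± 0.12 (adjusted p = 0.0296, and 0.0301 without the A array labelled 4 d 1a). Hspa1b, the inducible HSP70, read 575 and 559 at 4 d, against 2457 and 1997 at 10 h, and 369 and 352 at 6 d, against 483 and 497 at 2 d. The 10 h arrays stood far above all others, the change was -1.20 ± 0.16 (adjusted p = 0.0473), and it passed within the first pair (-1.97, adjusted p = 0.0384) but not in the second (-0.44). Without the A array labelled 4 d 1a its adjusted p was 0.0589. Hspa1a, its near-identical copy, was -1.17 (adjusted p = 0.143), and of 33 heat shock and chaperone genes 22 were lower with a median of -0.10. Tnfrsf12a, the receptor for the cytokine TWEAK, read 1025 and 1079 at 4 d, against 2385 and 2179 at 10 h, and 1156 and 1183 at 6 d, against 1681 and 1593 at 2 d. It fell by 0.80 ± 0.09 (adjusted p = 0.0431), with no overlap of late and early arrays.

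The 28 glucocorticoid response genes and metallothioneins were mixed, 16 lower and 12 higher with a median of -0.09, the median was -0.48 for 4 d over 10 h against 0.09 for 6 d over 2 d, and the median over both was 0.07 without the A array labelled 4 d 1a. Mt1, a metal-binding metallothionein, read 2088 and 1150 at 4 d, against 6368 and 5888 at 10 h, and 2038 and 1477 at 6 d, against 1417 and 1743 at 2 d. Only the 10 h arrays were high (change -0.92, adjusted p = 0.176), as for Mt2, with 3717 and 2007 at 4 d, against 9165 and 13105 at 10 h, and 3089 and 3922 at 6 d, against 3780 and 3163 at 2 d. Of 22 chemokine and acute inflammation genes 15 were lower (median -0.17) and none passed, 7 lower and 1 higher at an unadjusted p under 0.05 in limma (6.17% and 6.8% of all genes). Ccl17, a chemokine for T cells, lay between 42.7 and 186 in the late arrays, all under the floor, against 279 to 895 in the early ones, a difference of at least 1.20 (adjusted p = 0.187).

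Follistatin (Fst), a secreted antagonist of activin, fell by 1.14 ± 0.14 (adjusted p = 0.0431, and 0.0458 without the A array labelled 4 d 1a). It read 241 and 49.8 at 4 d, against 969 and 1079 at 10 h, and 106 and 28.9 at 6 d, against 265 and 276 at 2 d. Of the 4 late arrays 3 lay at the floor and the array labelled 4 d 1a barely above it, so the size of the change depends on the floor, and its other probe set was -0.30 with all late arrays at the floor. Of 37 genes of BMP, TGF-beta and activin signalling 22 were lower (median -0.07), with Id3, a BMP target, at -0.42 (adjusted p = 0.203) and Fstl3, a relative of follistatin, at -0.49 (adjusted p = 0.226). Bmpr2, the BMP receptor that is mutated in heritable pulmonary hypertension, was 0.28 (adjusted p = 0.666), Id1 -0.21 (adjusted p = 0.777) and Tgfb1 -0.34 (adjusted p = 0.629).

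**Figure D2:**
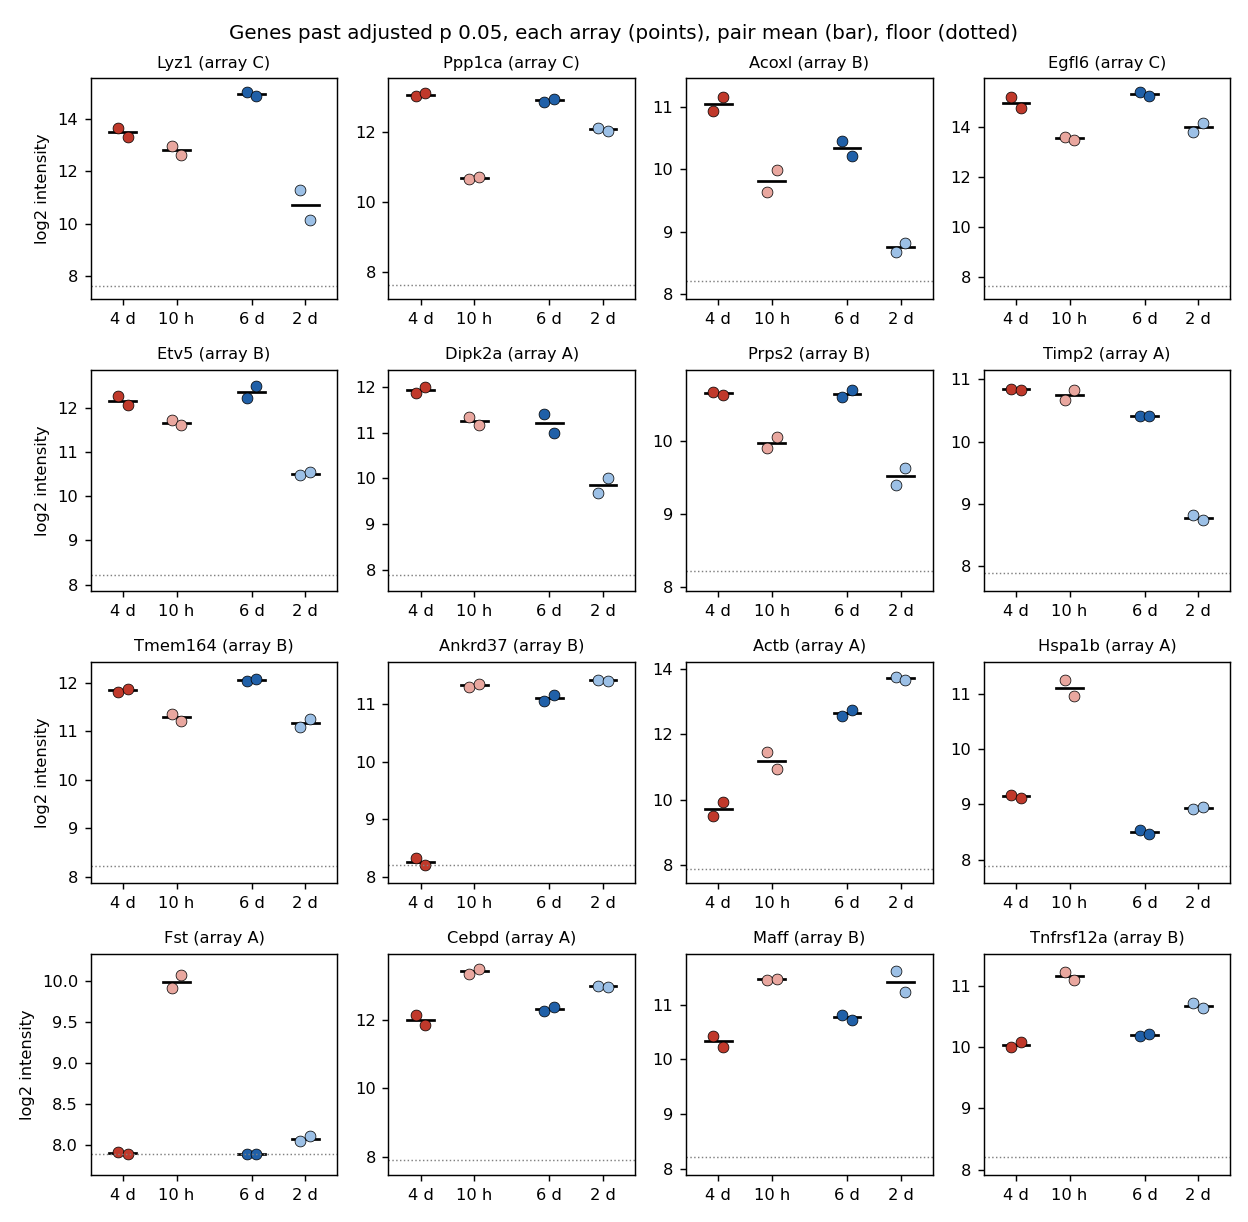
Log2 intensity per array for the 16 genes that passed, with 4 d left of 10 h and 6 d left of 2 d in each panel, bars at the mean of the 2 arrays and a dotted line at the floor. Egfl6 and Acoxl moved by like amounts in both pairs, whereas Ankrd37 was low at 4 d alone and Lyz1 moved mostly between 6 d and 2 d.

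The remaining genes that passed belonged to no single list. Ankrd37, an ankyrin repeat protein encoded by a target of hypoxia-inducible factor, fell by 1.67 ± 0.09 (adjusted p = 0.00148). It read 323 and 238 at 4 d, against 2503 and 2597 at 10 h, and 2111 and 2270 at 6 d, against 2711 and 2692 at 2 d. The fall lay at 4 d (-3.04, adjusted p = 0.000440), where 1 array was at the floor, while 6 d over 2 d was -0.30 (adjusted p = 0.332), and the change differed between the runs by 2.74 ± 0.18 (adjusted p = 0.00813). Ppp1ca, which encodes the alpha catalytic subunit of type 1 protein phosphatase, rose by 1.61 ± 0.09 (adjusted p = 0.00148). It read 8406 and 8870 at 4 d, against 1611 and 1690 at 10 h, and 7514 and 7862 at 6 d, against 4466 and 4203 at 2 d, with no overlap. Its other probe set went the other way at -0.22 (adjusted p = 0.486), so the probe sets disagree.

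Acoxl, a relative of the peroxisomal acyl-CoA oxidases, rose, with like changes in both runs (1.24 and 1.59). It read 1961 and 2286 at 4 d, against 795 and 1016 at 10 h, and 1406 and 1193 at 6 d, against 408 and 453 at 2 d, a change of 1.41 ± 0.14 (adjusted p = 0.0278), and its other probe set was 0.64 with no overlap. Prps2, which makes the ribose precursor of nucleotides, read 1641 and 1598 at 4 d, against 959 and 1070 at 10 h, and 1561 and 1670 at 6 d, against 674 and 799 at 2 d. It rose by 0.91 ± 0.11 (adjusted p = 0.0473), with its 4 late arrays nearly level, while its other probe set was 0.47 (adjusted p = 0.581), with -0.03 and 0.96 in the runs. Tmem164, a membrane protein, rose by 0.72 ± 0.09 (adjusted p = 0.0473), with late arrays of 3616 to 4352 against early arrays of 2190 to 2631.

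For Dipk2a and Timp2 late and early arrays overlapped. Dipk2a, a protein with a divergent kinase domain, read 3701 and 4109 at 4 d, against 2596 and 2291 at 10 h, and 2718 and 2034 at 6 d, against 816 and 1038 at 2 d, and rose by 1.02 ± 0.13 (adjusted p = 0.0473, and 0.0712 without the A array labelled 4 d 1a). Timp2, an inhibitor of matrix metalloproteinases, read 1844 and 1827 at 4 d, against 1628 and 1814 at 10 h, and 1358 and 1355 at 6 d, against 453 and 426 at 2 d. Its rise of 0.86 ± 0.11 (adjusted p = 0.0473, and 0.0591 without that array) rested on the 2 d arrays, since 4 d over 10 h was 0.09, and its other probe set was -0.19. The difference between the runs did not pass for Timp2, Etv5, Lyz1 or Hspa1b (adjusted p of 0.0817, 0.0922, 0.0631 and 0.161). Actb, cytoplasmic beta-actin, read 732 and 980 at 4 d, against 2812 and 1952 at 10 h, and 6054 and 6897 at 6 d, against 13937 and 13008 at 2 d. It fell by 1.26 ± 0.15 (adjusted p = 0.0420, and 0.0591 without that array), although the runs differed more from each other than late from early. This Actb probe set carries the suffix f. The other Actb probe set tested was -0.40 (adjusted p = 0.736), with -0.0092 for 4 d over 10 h and -0.79 for 6 d over 2 d. The 3' to 5' ratio of the actin control was 0.0272 to 0.613 at 4 d against 0.0430 to 0.517 at 10 h, and 0.474 to 1.66 at 6 d against 3.64 to 4.98 at 2 d. Its part in the Actb result was not tested.

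Further probe sets that passed were not the representative ones of their genes, and those representative ones did not pass. A probe set of Cpm, a membrane carboxypeptidase, was 1.22 ± 0.10 (adjusted p = 0.0197). It read 5132 and 5231 at 4 d, against 3244 and 3281 at 10 h, and 3143 and 3276 at 6 d, against 1064 and 836 at 2 d. Late arrays were above early ones within each run, but the 6 d and 10 h arrays overlapped. Ppp1r14c was 1.37, Trir 0.84, Erdr1 -0.87 and Mtm1 -1.30 (for Erdr1 and Mtm1 adjusted p of 0.0663 and 0.0642 without the A array labelled 4 d 1a), and 1 probe set with no gene name was -2.11. Mbnl2 (0.76) and 1 probe set of Ntrk2 (-1.20) passed with opposite signs in the 2 runs and are no shared change. Genes with the smallest p that did not pass but had the same sign in both runs included Nrn1 (1.34, adjusted p = 0.0560), Colec12 (0.87, 0.0673), Tubb6 (-0.78, 0.0676), Flnc (-0.79, 0.0859), Mmp3 (-0.89, 0.102) and Has1 (-1.06, 0.105). Without the A array labelled 4 d 1a, which leaves 1 A array at 4 d, Tubb6 was -0.87 and Mmp3 -1.04. The probe sets of Nrn1 and Colec12 are not of type A, so their changes stayed at 1.34 and 0.87.

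No gene of the vasoactive, contractile smooth muscle, angiogenic or endothelial lists passed for late over early. Of 32 vasoactive genes 18 were higher, none passed, 4 were higher and 3 lower at an unadjusted p under 0.05 in limma (6.8% and 6.17% of all genes), and the median was 0.04. Those of smallest p were both subunits of soluble guanylate cyclase, the receptor of nitric oxide in smooth muscle. Gucy1a1, its alpha subunit, read 4036 and 3469 at 4 d, against 2218 and 2007 at 10 h, and 3876 and 3401 at 6 d, against 809 and 1430 at 2 d. The change was 1.29 ± 0.18 (adjusted p = 0.0676, and 0.0489 without the A array labelled 4 d 1a, the probe set itself being on B). Gucy1b1, its beta subunit, read 5750 and 6884 at 4 d, against 4065 and 4080 at 10 h, and 6569 and 6804 at 6 d, against 3785 and 3612 at 2 d. Its change was 0.74 ± 0.10 (adjusted p = 0.0578), on a probe set of B that leaving out that array does not alter. Its other probe set was 1.03 (adjusted p = 0.0731), and for all 3 probe sets every late array was above every early one.

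Ace, the endothelial enzyme that makes angiotensin II, read 3067 and 2735 at 4 d, against 4433 and 5339 at 10 h, and 4084 and 4130 at 6 d, against 5887 and 5545 at 2 d. All late arrays were below the early ones (-0.61 ± 0.11, adjusted p = 0.119). Agtr1a, an angiotensin II receptor, was on the other side at 0.51 ± 0.12 (adjusted p = 0.191), also without overlap. Edn1, the vasoconstrictor endothelin-1, read 2374 and 1058 at 4 d, against 3370 and 3220 at 10 h, and 1720 and 1573 at 6 d, against 1878 and 1987 at 2 d. Its change was -0.64 ± 0.22 (adjusted p = 0.299), and -0.93 without the A array labelled 4 d 1a, which leaves 1 at 4 d. Its other probe set was -0.31 (adjusted p = 0.403), with opposite signs in the runs (-0.98 and 0.35). Ptgis, which makes prostacyclin, was -0.39 (adjusted p = 0.260), Ednrb 0.05 (adjusted p = 0.883), Ece1 0.57 (adjusted p = 0.512) and Nos3, near the floor, 0.23 (adjusted p = 0.704).

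Of 21 contractile smooth muscle genes 13 were lower, with a median of -0.05 and none passed, 6 lower and 1 higher at an unadjusted p under 0.05 in limma (6.17% and 6.8% of all genes). Acta2, smooth muscle actin, read 6477 and 4534 at 4 d, against 6156 and 7945 at 10 h, and 5043 and 4564 at 6 d, against 11138 and 11493 at 2 d (-0.80 ± 0.15, adjusted p = 0.135). The 2 d arrays were the high ones on this probe set. The other Acta2 probe set, of type C, changed by 0.0042 (adjusted p = 0.997). On it 4 d read 386 and 410, against 455 and 326 at 10 h. The 6 d arrays read 345 and 236 there, against 410 and 209 at 2 d. Actg2, enteric smooth muscle actin, was lower on every late array (-0.61 ± 0.11, adjusted p = 0.122), Tagln was -0.75 (adjusted p = 0.235), Cnn1 -0.70 (adjusted p = 0.189) and Des -0.54 (adjusted p = 0.223). The actin genes are similar in sequence, and the Actg2 probe set carries the suffix f.

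Of 43 angiogenic ligands and receptors 28 were higher, 19 of them in both runs (24.5% of all genes), with a median of 0.14, none passed, and 10 were higher and 2 lower at an unadjusted p under 0.05 in limma (6.8% and 6.17% of all genes). Without the A array labelled 4 d 1a the median was 0.07. Met, the receptor of hepatocyte growth factor, read 2720 and 2538 at 4 d, against 1036 and 1211 at 10 h, and 2157 and 2586 at 6 d, against 1393 and 1887 at 2 d, with no overlap (0.89 ± 0.13, adjusted p = 0.0859). Pdgfd, a platelet-derived growth factor, was 0.80 (adjusted p = 0.189) and Aplnr, the endothelial apelin receptor, 0.47 (adjusted p = 0.212). Vegfa was 0.17 (adjusted p = 0.823; -0.16 without that array), Kdr -0.23 (adjusted p = 0.687) and Flt1 -0.20 (adjusted p = 0.673). Of 32 endothelial genes 17 were higher and 15 lower, with a median of 0.01.

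Of 41 hypoxia-inducible factor targets and glycolytic genes 27 were lower (6436 of 12890 over all genes), with a median of -0.08. Ankrd37 was the 1 gene of these that passed (0.0543% of all genes fell). At an unadjusted p under 0.05 in limma 4 were lower and 2 higher (6.17% and 6.8% of all genes). Ldha was -0.20 (adjusted p = 0.731), Hmox1 -0.08 (adjusted p = 0.818) and Slc2a1, at the floor on all 4 late arrays, -0.20 (adjusted p = 0.510). Hif1a itself was level at -0.05 (adjusted p = 0.912), with 4786 to 5596 in late arrays against 4605 to 6291 in early ones. Matrix genes were mixed, with 20 of 37 collagen genes lower (median -0.06). Of 27 matricellular genes 14 were lower (median -0.09, and 0.0055 without the A array labelled 4 d 1a). Of 19 elastic fibre genes 13 were higher (median 0.10), 12 of the 19 in both runs (24.5% of all genes). Of these 19, 2 were higher and 1 lower at an unadjusted p under 0.05 in limma (6.8% and 6.17% of all genes). Timp1, a metalloproteinase inhibitor, read 2651 and 1617 at 4 d, against 2822 and 2880 at 10 h, and 2064 and 2427 at 6 d, against 5202 and 5779 at 2 d. Every late array was lower (-0.88 ± 0.16, adjusted p = 0.122), the opposite side from Timp2. Without the A array labelled 4 d 1a, which leaves 1 at 4 d, the Timp1 change was -1.06. Of 40 genes of the disease model 37 were tested, with 25 lower and 12 higher. Ankrd37, Cebpd and Fst fell (3 of 37, against 0.0543% of all genes). These genes were chosen with earlier results of these data known, so the share says nothing about disease genes in general.

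**Figure D3:**
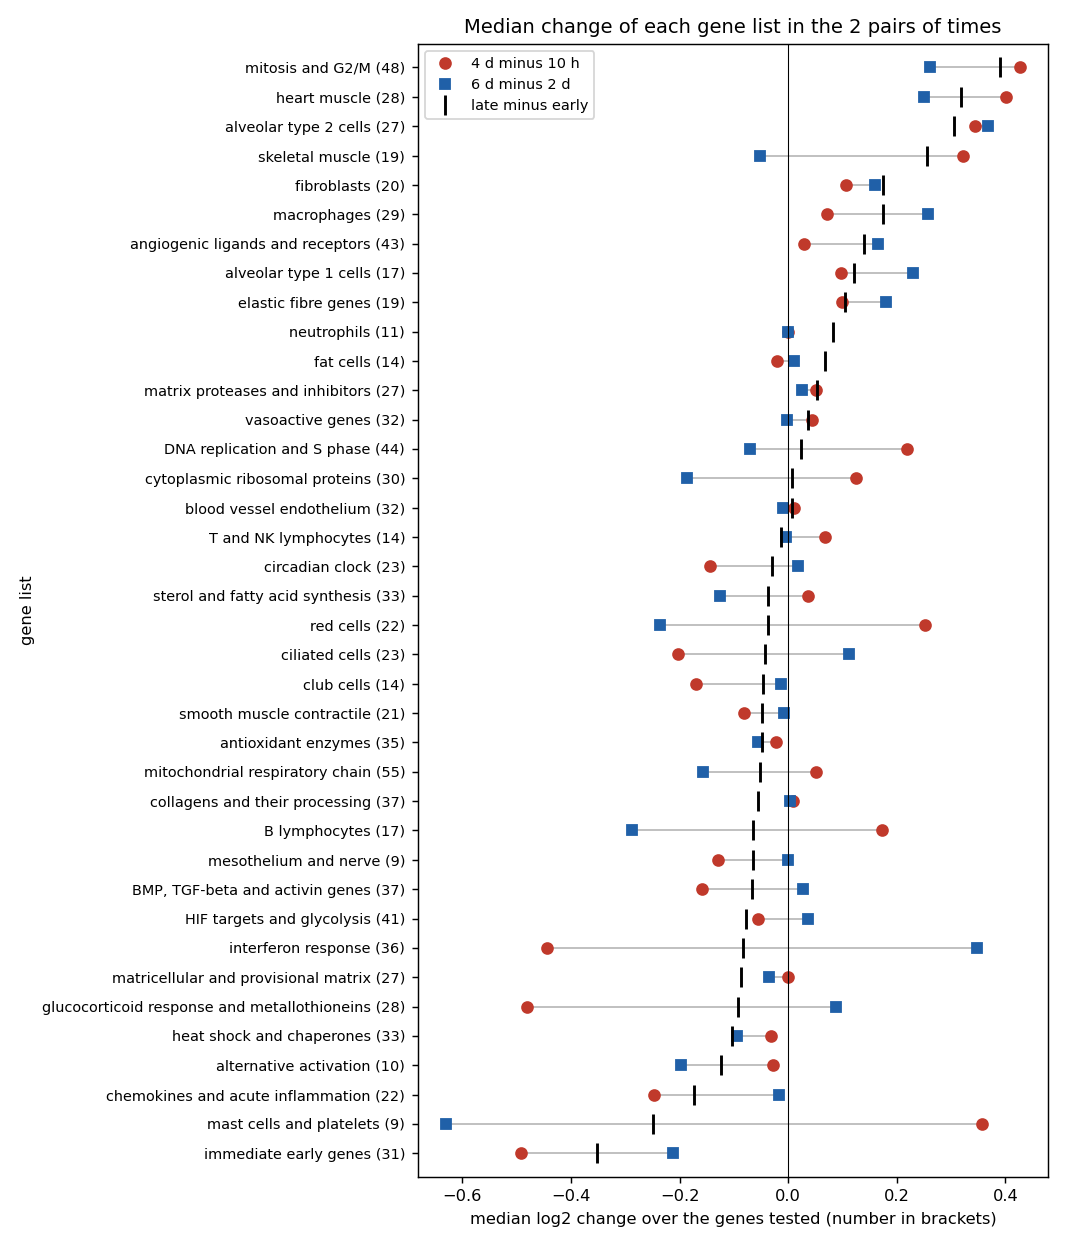
Median log2 change of 38 gene lists over the genes tested (number in brackets), with circles for 4 d minus 10 h, squares for 6 d minus 2 d and a black tick for late minus early. Alveolar type 2 cells, heart muscle and mitosis lie right of 0 in both runs and immediate early genes left of 0 in both, while interferon genes lie at -0.44 and 0.35.

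Mitosis genes stood higher in late lungs, but the size depended on the A array labelled 4 d 1a. Of 48 tested 40 were higher, 32 in both runs (24.5% of all genes), with a median of 0.39 (0.43 and 0.26), 19 higher and 1 lower at an unadjusted p under 0.05 in limma (6.8% and 6.17% of all genes), and none passed. The mean centred level was 0.287 and -0.186 at 4 d, against -0.313 and -0.405 at 10 h, and 0.312 and 0.324 at 6 d, against -0.056 and 0.036 at 2 d (log2). Sample 4 d 1a was at the level of 6 d and its partner was not. Without that A array 37 of 47 were higher, the median was 0.24 and that of 4 d over 10 h 0.12. On B and C alone 9 of 15 were higher with a median of 0.12. Mki67, the Ki-67 antigen of dividing cells, read 1084 and 89.2 at 4 d, against 276 and 252 at 10 h, and 744 and 811 at 6 d, against 400 and 404 at 2 d (0.95 ± 0.41, adjusted p = 0.393). Smc2, a condensin subunit, was higher on every late array (0.86, adjusted p = 0.176), and Cenpf, a kinetochore protein, was higher at 6 d over 2 d (1.58, adjusted p = 0.0207), with all early arrays at the floor and no difference for 4 d over 10 h (late over early had an adjusted p of 0.0578, and 0.0411 without that array). Genes of DNA replication and S phase were near level: 24 of 44 were higher, with a median of 0.02, and 4 were higher and 2 lower at an unadjusted p under 0.05 (6.8% and 6.17% of all genes), near the shares of all genes.

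**Figure D4:**
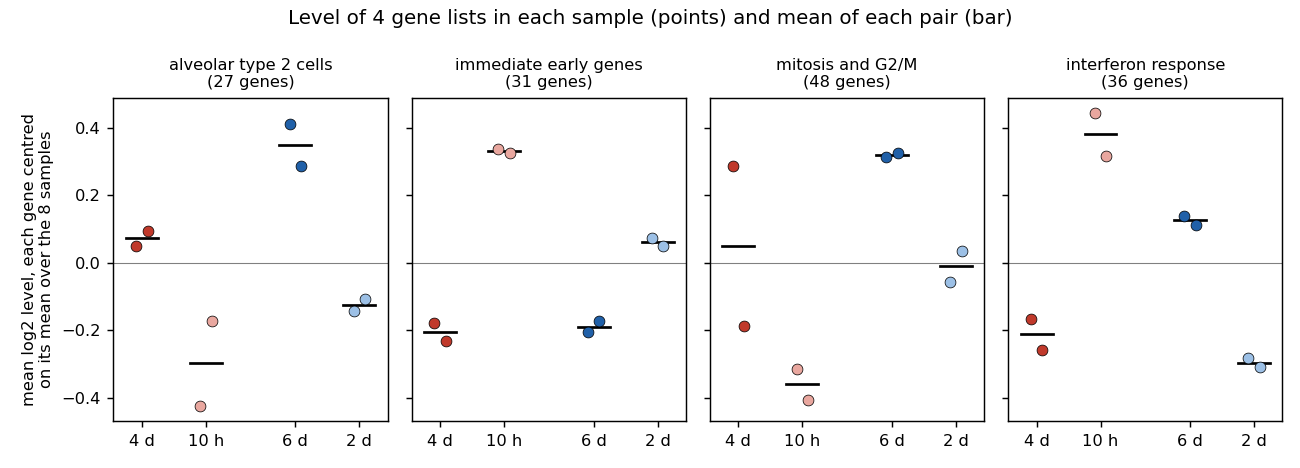
Mean centred log2 level of 4 gene lists in each sample, with 4 d left of 10 h and 6 d left of 2 d. Late samples were above early ones for alveolar type 2 genes and below for immediate early genes, mitosis genes were split between the 4 d samples (0.287 and -0.186), and interferon genes were highest at 10 h.

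No heart or skeletal muscle gene passed for late over early. Of 28 heart muscle genes 21 were higher, 17 in both runs (24.5% of all genes), with a median of 0.32 (0.40 and 0.25), and 10 were higher and none lower at an unadjusted p under 0.05 in limma (6.8% of all genes higher). Without the A array labelled 4 d 1a 23 of 28 were higher and the median was 0.36. Tnnt2, cardiac troponin T, read 1659 and 1437 at 4 d, against 982 and 1014 at 10 h, and 1015 and 1052 at 6 d, against 754 and 663 at 2 d. Each late group was above its early partner, with 4 d the highest (0.59, adjusted p = 0.179). Smpx, a small muscle protein, was 0.97 with no overlap (adjusted p = 0.124). Of 19 skeletal muscle genes 15 were higher, with medians of 0.32 for 4 d over 10 h and -0.05 for 6 d over 2 d. Acta1, skeletal actin, read 1700 and 3941 at 4 d, against 80.1 and 26.8 at 10 h, and 915 and 1160 at 6 d, against 801 and 1060 at 2 d. It rose at 4 d over 10 h (3.44, adjusted p = 0.0318), with both 10 h arrays at the floor so that the size is at least that. Over both pairs it was 1.80 (adjusted p = 0.0675), and 2.1 without the A array labelled 4 d 1a, which leaves 1 at 4 d.

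Markers of other cells had smaller medians. Of 29 macrophage genes 24 were higher (median 0.17), 15 of 20 fibroblast genes were higher (median 0.17) and 11 of 17 alveolar type 1 genes were higher (median 0.12), with none passed in these 3 lists and 4, 3 and 3 genes higher at an unadjusted p under 0.05 in limma, against 6.8% of all genes (1 macrophage gene was lower). The macrophage median was 0.10 without the A array labelled 4 d 1a. Apoe, apolipoprotein E, was higher on every late array (0.55, adjusted p = 0.149), and Retnla, a secreted protein that is induced in hypoxic mouse lung, was lower in both runs (-0.66, adjusted p = 0.258). Medians for club cells, ciliated cells and T and NK lymphocytes lay between -0.05 and -0.01. B lymphocyte genes had medians of 0.17 for 4 d over 10 h and -0.29 for 6 d over 2 d (13 of 17 with opposite signs). Red cell genes had 0.25 and -0.24 (16 of 22 with opposite signs). Over all genes 6264 of 12890 had opposite signs. The 9 genes of mast cells and platelets had opposite medians in the runs, 0.36 for 4 d over 10 h and -0.63 for 6 d over 2 d. None of the 9 passed, and 2 were lower at an unadjusted p under 0.05 in limma (6.17% of all genes).

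Interferon-induced genes went opposite ways in the 2 runs. Of 36 tested 27 had opposite signs in the 2 runs, against 6264 of 12890 over all genes. The median was -0.44 for 4 d over 10 h, with 17 genes lower at an unadjusted p under 0.05 (5.69% of all genes), and 0.35 for 6 d over 2 d, with 13 higher (8.46% of all genes). The mean centred level was -0.166 and -0.258 at 4 d, against 0.445 and 0.317 at 10 h, and 0.139 and 0.113 at 6 d, against -0.282 and -0.308 at 2 d (log2), so late minus early averages opposite differences (21 of 36 lower with a median of -0.08, and 22 of 36 with -0.09 without the A array labelled 4 d 1a). The test of the difference between the runs (6 d over 2 d minus 4 d over 10 h) called 11 of 25279 probe sets (0.0435%), 10 higher and 1 lower. Ifit1, an interferon-induced RNA-binding protein, read 308 and 317 at 4 d, against 1403 and 1168 at 10 h, and 1003 and 686 at 6 d, against 147 and 255 at 2 d. Its runs differed by 3.79 ± 0.39 (adjusted p = 0.0227). Oas2, an enzyme of antiviral 2-5A synthesis, read 1083 and 1061 at 4 d, against 2517 and 2740 at 10 h, and 1820 and 1724 at 6 d, against 797 and 919 at 2 d, a difference of 2.34 ± 0.19 (adjusted p = 0.0184). Oasl2 differed by 2.86 and 1 probe set of Irf7, the interferon-inducing factor, by 2.73 (adjusted p = 0.0284 and 0.0362), and the other Irf7 probe set by 3.03 (adjusted p = 0.0577).

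Within single runs few genes passed. For 4 d over 10 h 29 probe sets passed (0.115%), 7 higher and 22 lower, and for 6 d over 2 d 30 passed (0.119%), 22 higher and 8 lower. In the first pair Ankrd63 rose by 3.03 (adjusted p = 0.0405), with 1944 and 2005 at 4 d, against 295 and 190 at 10 h, and 6 d and 2 d at the floor, and Slfn8, a Schlafen family gene, fell by 2.76 or more (adjusted p = 0.0405), with 127 and 145 at 4 d, both under the floor, against 1427 and 1267 at 10 h. In the second pair Lats2, a kinase of the Hippo pathway, rose by 1.75 (adjusted p = 0.0453), with 1499 and 1351 at 6 d, against 472 and 378 at 2 d. Its other probe sets were -0.31 and 0.13 in that pair. Fut9, a fucosyltransferase, fell by 1.11 (adjusted p = 0.0453), with 332 and 256 at 6 d, against 676 and 681 at 2 d.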

How the data were processed

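Whole lung RNA of 8 samples was measured on 3 array types, 24 arrays in all. The authors' deposited value tables hold intensities, linear, 1 for each probe set and array. Software and genome build are not given in the sources used here. Because the trimmed means of the arrays (leaving out 2% at both ends) were 800.2 to 800.4, no further normalization was applied. Log2 intensities, raised where needed to a floor (the 40th percentile of the type), were fitted type by type with 4 group means in limma (version 3.58.1, R version 4.3.3), using eBayes with a variance trend. A probe set entered where 2 or more arrays exceeded the floor: 8320 on A, 8439 on B and 8520 on C. Two-sided p-values were adjusted over the 25279 probe sets together, threshold 0.05. The procedure was tested on simulated data.

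Symbols came from the supplied platform annotation and were updated by gene ID. Probe sets with 1 symbol numbered 10833, 10581 and 7717, with several 396, 178 and 150, and with none 1193, 1652 and 4001 on A, B and C. A gene was represented by 1 probe set, a plain one before those with suffix letters, then the one of highest relative level. The text names all genes that passed and the genes of smallest p to 12 each way with the same sign in both runs, up to 4 of smallest p in a list, the probe sets of smallest p for the run difference, the largest changes within runs (up to 5 each way) and 40 disease genes, of which some are only counted. Cpm, the second Sftpa1 probe set, Cxcl15, Lyz2, Jun, Fos, Egr1 and others outside this rule were chosen after their values were seen. Members, lists and tests were chosen with earlier results of these data known. Genes and probe sets of an array at the floor have only an upper bound there. The main fit used no pairing by the letters 1a and 1b, whose meaning the labels do not give. Their differences (1a minus 1b) correlated at -0.158 to 0.0921 over 18 pairs of groups and array types. Such correlations cannot show whether samples were paired. Alternatives changed the scaling, floor, filter, variance trend, groups fitted, block, adjustment, array types and arrays left out.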

Additional observations from a re-analysis of the deposited data

Results flagged for a closer look

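In 2 of 48 groups of 4 arrays looked at, 1 array stood apart because the other 3 were tied at the floor. Any value above the floor does so there, and the usual rate of about 1 group in 20 does not hold for ties. For Fst the A array labelled 4 d 1a read 241, barely above the floor of 238 and so nearly level with the other 3 late arrays. For Has1, a hyaluronan synthase, the array 6 d 1b read 324 against 3 late arrays at the floor.

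The change with time differed between the runs in the test of that difference, 6 d over 2 d minus 4 d over 10 h, for 11 probe sets (limma, adjusted p under 0.05). The differences were 3.79 for Ifit1, 3.43 for 1 probe set of Ntrk2, 2.86 for Oasl2, 2.74 for Ankrd37, 2.73 for 1 probe set of Irf7, 2.34 for Oas2, 2.27 for Tapbp, 2.20 for Mbnl2 and 2.14 for Cdk19. A probe set with no gene name differed by 2.68 and another by -2.42. Ntrk2, the receptor of BDNF, read 554 and 407 at 4 d, against 3846 and 3347 at 10 h, and 5522 and 5855 at 6 d, against 4010 and 3986 at 2 d, on that probe set (adjusted p = 0.00813), and its 3 other probe sets did not pass. Cdk19, a kinase of the Mediator complex, read 1783 and 1492 at 4 d, against 4665 and 4503 at 10 h, and 9199 and 9151 at 6 d, against 5919 and 5815 at 2 d. Mbnl2, a splicing regulator, was lowest at 2 d, reading 5374 and 5607 at 4 d, against 7013 and 6905 at 10 h, and 4673 and 4269 at 6 d, against 1182 and 1284 at 2 d.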

How the results depend on the processing

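The count of probe sets past the threshold depended on the processing, while none of the 16 genes that passed changed sign in the 330 gene and alternative pairs run. Of these pairs 128 kept the call, and Ankrd37 and Ppp1ca kept it in 19 of 21, Acoxl and Lyz1 in 11 of 21, Etv5 in 10 of 21, Prps2 in 7 of 21, Cebpd in 7 of 20, Fst and Hspa1b in 6 of 20, Egfl6, Tmem164 and Tnfrsf12a in 6 of 21, Maff in 4 of 21, Actb and Timp2 in 4 of 20 and Dipk2a in 2 of 20. Late over early gave 25 probe sets, against 23 with median scaling, 10 with quantile normalization, 19 with the floor at the 20th percentile, 112 with no filter, 39 above the floor on 5 arrays, 9 with no variance trend, 4 with Norm in the fit, 36 adjusted within each array type, 17 on B and C alone and 51 without the A array labelled 4 d 1a. It gave 3 with run plus late or early as the model, and 0 in limma on late against early alone (1414 at an unadjusted p under 0.05). Under the alternatives of the same names, in that order, 4 d over 10 h gave 29, against 32, 29, 7, 65, 41, 14, 6, 24, 21 and 166, and 0 in limma on those 2 groups alone (1683 at an unadjusted p under 0.05). For 6 d over 2 d the counts were 30, against 60, 38, 19, 107, 128, 11, 16, 209, 57 and 53, and 4 on those 2 groups alone. For the difference between the runs they were 11, against 15, 18, 11, 109, 46, 8, 1, 17, 13 and 52. With the letter 1a or 1b as a replicate block the counts were 3, 4, 5 and 2 for these 4 comparisons, and the letters share only a number. Leaving out 1 sample gave 2 to 31 for late over early (31 without 4 d 1a, 3 without 4 d 1b, 2 without either 6 d sample, 3 and 6 without 10 h 1a and 1b, 4 and 5 without 2 d 1a and 1b), with the lone sample of a group assumed to vary like the others. It gave 3 to 125 for 4 d over 10 h, the highest without 4 d 1a. It gave 0 to 27 for 6 d over 2 d, with 0 in limma without either 6 d or either 10 h sample (2231 to 3541 at an unadjusted p under 0.05), and 0 to 14 for the difference between the runs, with 0 in limma without either 6 d sample, 10 h 1a or either 2 d sample (2051 to 2922). The cause was not tested for these shifts, beyond fewer samples in the fits that leave some out. For the gene lists, leaving out the A array labelled 4 d 1a was chosen after seeing the data. Signal near the floor limits the size of changes of dim genes such as Fst.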
